A study of Drosophila melanogaster with 53 samples.

Results

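The effect of losing foxo was measured in muscle of Drosophila melanogaster females that already carried a homozygous miR-252 mutation. Of the 53 samples of the series, 6 enter this comparison, 3 libraries from double mutants and 3 from miR-252 single mutants. All flies were females in conventional culture, collected 3 d after eclosion. The genes tested were those with a mean of 10 or more normalised reads over the table of 15 libraries that holds these groups, 8357 of 10258 listed. The series asks how the microRNA miR-252 and FoxO act on inflammation with age through the activin-like ligand daw, and also holds WT muscle of several ages and RNA immunoprecipitates of whole flies. Double mutants (miR252foxo below) were homozygous for a chromosome that carries both mir-252c328 and foxoc431, and the single mutants they were set against (miR252) were mir-252c328/c328, so both groups carry the miR-252 mutation. Beside these stand muscle of the same double mutants with 1 copy of dawc458 (dawc458/+), of single mutants homozygous for foxoc431 (foxo) and of the control strain 5905, w1118 (WT). Other libraries hold foxoc431/c431 together with daw-3'UTRc82/c82, set against daw-3'UTRc82/c82 alone (daw3UTRfoxo and daw3UTR), and in axenic flies set against axenic WT flies. The sequence changes behind the c431 and c328 alleles are not described in the labels. Nor do the labels state whether replicate libraries were made from different flies, so p-values measure a spread between samples that may be technical. Differences between the groups other than the named alleles, such as stock background, were not tested.

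FoxO is the transcription factor that insulin signalling holds in check: when insulin-like peptides bind their receptor, the kinase Akt phosphorylates FoxO and keeps it out of the nucleus. In flies, nuclear FoxO turns on genes that restrain growth and protein synthesis, and in muscle it is known for its part in protein quality control and in ageing. Daw is a ligand of the activin branch of TGF-beta signalling, which acts through the type I receptor babo and the transcription factor Smox.

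Whole-read totals on listed genes were 3611147 to 4078819 in miR252foxo and 3375246 to 3646007 in miR252. No library stood apart from its group (correlations within a group were 0.969 to 0.982 over the 15 libraries), and no pair of replicates within miR252foxo or within miR252 agreed within counting noise. The foxo transcript did not check the labels. Its level was 699.9, 587 and 579.8 normalised reads in miR252foxo, against 620.1, 509 and 599.8 in miR252 (log2 0.11 ± 0.12, adjusted p = 0.563), and the groups overlapped. In the foxo single mutants foxo mRNA was higher than in WT (log2 0.37 ± 0.12, adjusted p = 0.0455), as it was in daw3UTRfoxo over daw3UTR (log2 0.45 ± 0.14, adjusted p = 0.0271). The gene foxo spans 3R:14056945-14087978 on the plus strand in the BDGP6 annotation of the dm6 build that the submitters name. The mir-252 locus lies on the same arm at 3R:13464219-13464311 on the minus strand, and its transcript is not in the table used. Muscle markers were high in both groups: the summed level of 10 of them ran from 77050 to 81130 normalised reads in miR252foxo and from 69170 to 80720 in miR252. Myosin heavy chain (Mhc) stood at 18790, 18630 and 20190 in miR252foxo, against 20130, 18820 and 22700 in miR252 (log2 -0.09 ± 0.12, adjusted p = 0.62).

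With foxo mutated in the miR-252 background, many antimicrobial peptide, heat shock and proteasome genes rose, and many genes of respiration, glycolysis and sugar use fell. In all, 1583 of 8357 genes passed an adjusted p of 0.05 (18.9% called). Of these 790 were higher (9.45%) and 793 were lower (9.49%), and the median log2 change over all tested genes was 0.01. Counts on each list below stand against these shares, also where the shares are not repeated. Rises were larger than falls. The median called rise was 0.78 on the log2 scale and the median called fall -0.62, and changes of at least 1 on the log2 scale numbered 279 among the rises and 100 among the falls. Without miR252 replicate 3 the number called was 959, and without miR252foxo replicate 3 it was 961. The ranges of both groups did not overlap for 3061 genes (36.6%). These include 1535 of the 1583 called genes, so lack of overlap in a called gene named below adds little to its call. Just inside the limit on low values lay lncRNA:CR43126 and CG10062 (means 10.012 and 10.031), and just outside it sob and CG7694 (9.9887 and 9.9882). Of the tested genes 268 had a mean of 10 or more in only 1 of the groups, and 78 of these were among the called.

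**Figure D1:**
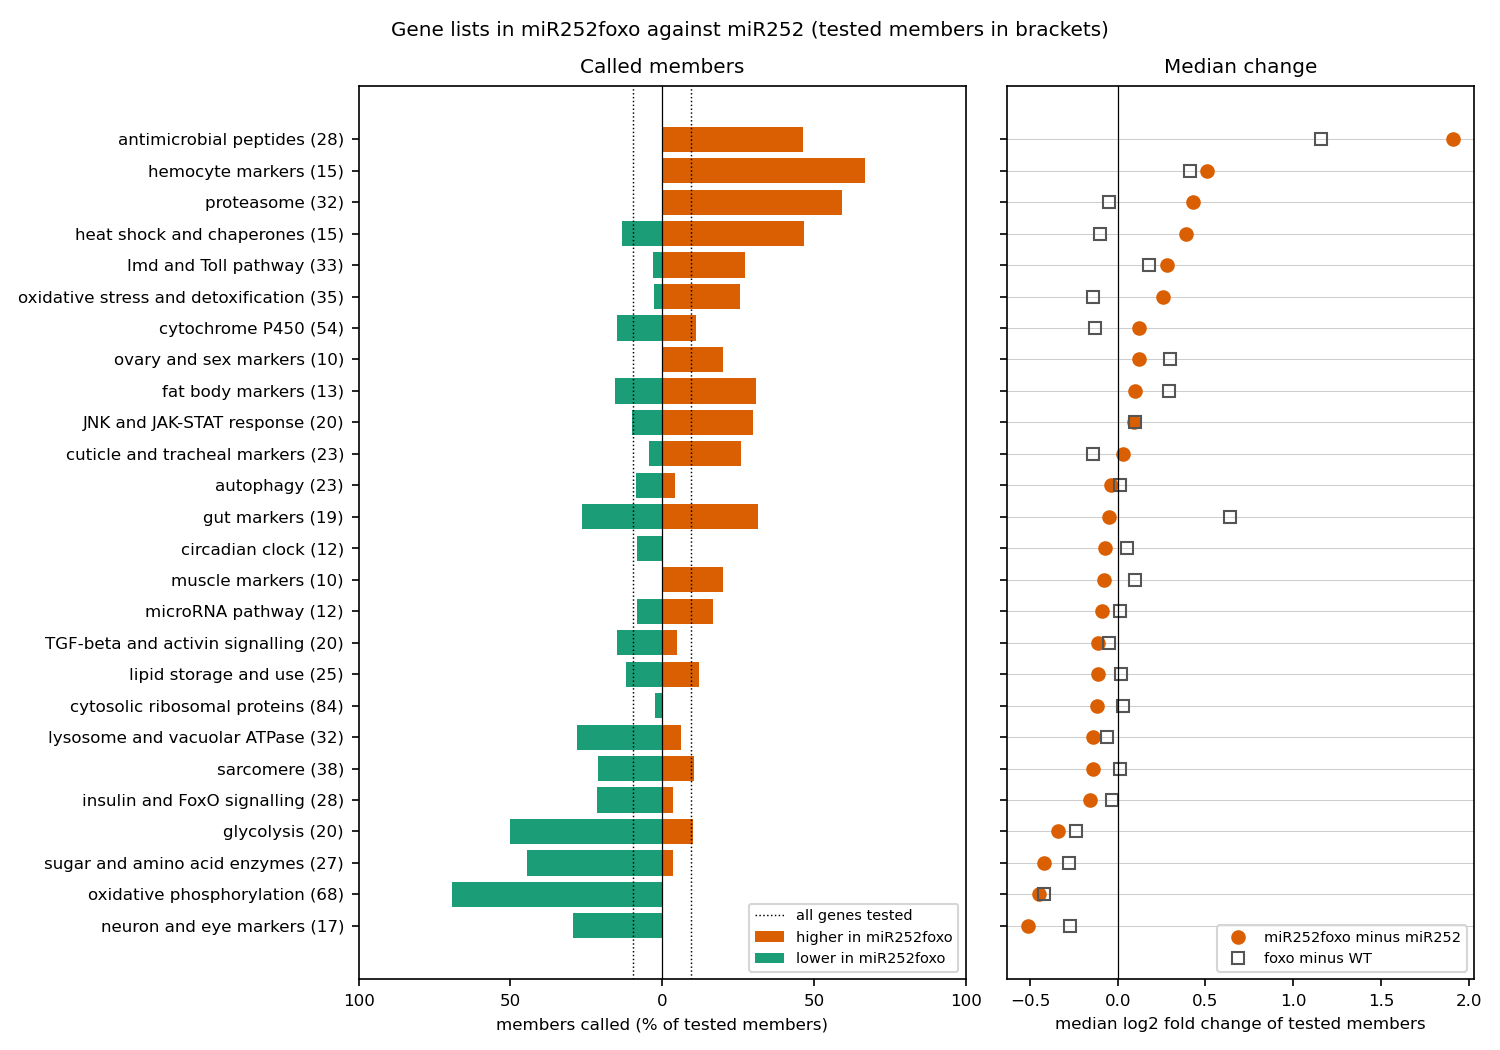
Gene lists in miR252foxo against miR252, with the number of tested members in brackets. Left, bars give the percentage of tested members called higher (to the right) and lower (to the left), with dotted lines at the values for all genes tested, 9.45 and 9.49; right, filled circles give each list's median log2 fold change in this comparison and open squares that in foxo against WT. Antimicrobial peptides have the highest median at 1.91 and oxidative phosphorylation the largest share called lower, 47 of 68.

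Among genes of insulin and FoxO signalling, 1 of 28 rose and 6 fell, with a median of -0.16. Over all genes 9.45% were higher and 9.49% lower. The list member that rose was ImpL2, a secreted protein that binds insulin-like peptides and limits their action. It had 1513, 1905 and 1841 normalised reads in miR252foxo, against 339.8, 477 and 374 in miR252 (log2 2.15 ± 0.14, adjusted p = 1.74e-08, with the standard error after ±). All double-mutant libraries lay far above all miR-252 libraries. Sesn, the sestrin that restrains TOR signalling, had 504, 551 and 584 normalised reads in miR252foxo, against 1293, 1100 and 1107 in miR252 (log2 -1.09 ± 0.10, adjusted p = 1.55e-06). Ilp6, an insulin-like peptide made mainly in fat body, stood at 57.9, 60.7 and 77.1 in miR252foxo, against 179, 150.1 and 118 in miR252 (log2 -1.17 ± 0.19, adjusted p = 0.00024). Lk6, a kinase of the translation factor eIF4E, had 3816, 3487 and 3092 in miR252foxo, against 6873, 5050 and 6169 in miR252 (log2 -0.79 ± 0.12, adjusted p = 0.000116). None of these 3 genes overlapped between groups, and each was lower in all double-mutant libraries. Thor, chico, Sdr and InR were named after their values were seen. Lower were Thor, the 4E-BP brake on translation and a classic FoxO target (log2 -0.82 ± 0.21, adjusted p = 0.0111), chico, the insulin receptor substrate (log2 -0.71 ± 0.15, adjusted p = 0.00194), and Sdr, a secreted decoy of the insulin receptor (log2 -0.79 ± 0.20, adjusted p = 0.00899). For InR, the insulin receptor, the change was -0.30 on the log2 scale with an adjusted p of 0.239.

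Of 20 genes of TGF-beta and activin signalling 1 rose and 3 fell, with a median of -0.11, against 9.45% higher and 9.49% lower over all genes. The ligand daw had 414, 456 and 422 normalised reads in miR252foxo, against 259.5, 307 and 358 in miR252 (log2 0.49 ± 0.14, adjusted p = 0.021). The double-mutant libraries lay above all miR-252 libraries, but the call was lost without miR252 replicate 1 (adjusted p = 0.119), miR252foxo replicate 2 (0.081) or miR252foxo replicate 3 (0.0529). In the double mutants with 1 mutant daw copy daw stood at 438, 361 and 468, in foxo at 426, 515 and 492 and in WT at 317, 403 and 459. Lower in miR252foxo were mav, another ligand of the family (log2 -0.68 ± 0.18, adjusted p = 0.0111), the type II receptor put (log2 -0.38 ± 0.12, adjusted p = 0.0249) and the BMP type I receptor tkv (log2 -0.34 ± 0.10, adjusted p = 0.0281). Each of these 3 calls was lost when 1 or more single libraries were left out, put and tkv in 4 such fits each and mav without miR252foxo replicate 1. The activin receptor babo (log2 -0.11, adjusted p = 0.677) and the activin ligand Actbeta (log2 -0.43, adjusted p = 0.169) did not pass.

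Antimicrobial peptide genes were the list with the highest median. These genes encode short secreted peptides of the humoral immune response, driven by the Imd and Toll pathways. Of 28 tested members 13 rose and 0 fell, with a median of 1.91, and 27 of 28 had a positive change. The count of falls was 0 also at an unadjusted p under 0.05 and with edgeR or DESeq2. The cecropin CecB had 99.0, 77.2 and 121 normalised reads in miR252foxo, against 3.13, 7.37 and 0 in miR252 (log2 4.92 ± 0.66, adjusted p = 4.06e-05), and its neighbour CecC had 109, 125 and 140.5, against 14.6, 26.7 and 0.971 in miR252 (log2 3.72 ± 0.76, adjusted p = 0.00183). The drosomycin-like genes Drsl4 and Drsl5 had tighter groups. Drsl4 stood at 536, 529 and 610.3 in miR252foxo, against 90.7, 99.5 and 121 in miR252 (log2 2.42 ± 0.17, adjusted p = 1.81e-08). For Drsl5 the values were 532, 456 and 432 in miR252foxo and 60.5, 121 and 71.8 in miR252 (log2 2.53 ± 0.27, adjusted p = 4.85e-06). No library of either group overlapped with the other for these 4 genes. Copies such as the cecropins may have shared reads in the counting. The miR-252 libraries were uneven for this list. Its summed level was 3937 in the lowest miR252 library and 18840 in the highest, against 22620 to 25800 in miR252foxo. The number called was 5 without miR252 replicate 3, 6 without miR252foxo replicate 3, 7 without miR252foxo replicate 2, 23 without miR252 replicate 2 and 6 with DESeq2. Drs, the drosomycin gene, shows this spread (named after its values were seen), at 5275, 4797 and 4795 in miR252foxo and 2188, 2297 and 183 in miR252 (log2 2.34 ± 0.68, adjusted p = 0.0204).

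Members of the Imd and Toll pathways also rose, 9 of 33 with 1 fall and a median of 0.28. The shares over all genes were 9.45% higher and 9.49% lower. Rel, an NF-kappaB protein that Imd signalling activates, had 793, 959 and 1110 normalised reads in miR252foxo, against 438, 521 and 347 in miR252 (log2 1.14 ± 0.15, adjusted p = 2.68e-05). The Imd inhibitor pirk stood at 58.7, 65.3 and 57.8 in miR252foxo, against 14.6, 12 and 4.85 in miR252 (log2 2.54 ± 0.37, adjusted p = 9.76e-05). PGRP-SA, a recognition protein upstream of Toll, had 299, 270.3 and 435 in miR252foxo and 55.2, 79.2 and 57.3 in miR252 (log2 2.36 ± 0.35, adjusted p = 9.76e-05). All 3 were higher in every double-mutant library. The Toll ligand spz had 295, 338 and 381 in miR252foxo, against 113, 137 and 114 in miR252 (log2 1.47 ± 0.16, adjusted p = 6.04e-06). The groups did not overlap for spz. Among 20 JNK and JAK-STAT genes 6 rose and 2 fell, with a median of 0.09, against the same shares over all genes. Their share of falls was near that over all genes. Socs36E, a JAK-STAT target and feedback inhibitor, had 282, 301 and 341 in miR252foxo and 91.7, 97.6 and 69.9 in miR252 (log2 1.83 ± 0.25, adjusted p = 4.83e-05). Gadd45, a stress gene of the JNK pathway, stood at 298, 359.5 and 298 in miR252foxo and 114, 107 and 92.2 in miR252 (log2 1.60 ± 0.25, adjusted p = 0.000199). The matrix metalloproteinase Mmp1 (log2 0.89 ± 0.14, adjusted p = 0.000206) and the cytokine receptor dome (log2 0.98 ± 0.19, adjusted p = 0.000994) rose by less. TotC, a secreted stress peptide of the Turandot family, moved the other way, with 163, 462 and 242 in miR252foxo and 546, 1440 and 574 in miR252 (log2 -1.54 ± 0.38, adjusted p = 0.00802).

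Hemocyte markers moved with the immune genes. Of 15 tested markers 10 rose and 0 fell (0 also at an unadjusted p under 0.05 and with edgeR or DESeq2), with a median of 0.51. The summed level of the 18 listed markers was 17690 to 21590 normalised reads in miR252foxo, against 11260 to 12220 in miR252, and none was at 0 in all libraries of a group. PPO1, a prophenoloxidase of crystal cells, had 1704, 1443 and 1498 in miR252foxo and 623, 569 and 710.4 in miR252 (log2 1.29 ± 0.14, adjusted p = 3.7e-06). PPO2, the second such enzyme, changed by 1.06 on the log2 scale (adjusted p = 1.37e-05). The phagocytic receptor eater stood at 138, 142 and 233 in miR252foxo and 62.5, 96.7 and 89.3 in miR252 (log2 1.02 ± 0.20, adjusted p = 0.00137). Ferritin heavy chain Fer1HCH, which other tissues also make, changed by 0.90 on the log2 scale (adjusted p = 0.000411). The double mutants with 1 mutant daw copy summed to 13020 to 14050, foxo to 12560 to 14450 and WT to 9432 to 10430. In bulk muscle, more cells of a type and more RNA per cell cannot be told apart. The part of hemocytes in the immune result was not tested.

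Several heat shock genes were higher in the double mutants than in every other group of the table. Of 15 tested chaperone genes 7 rose and 2 fell, with a median of 0.39. The small heat shock gene Hsp26 had 321, 530.5 and 382 normalised reads in miR252foxo, against 40.6, 75.5 and 24.3 in miR252 (log2 3.22 ± 0.46, adjusted p = 7.19e-05). Its levels elsewhere were 74.2, 94.9 and 29.9 in the double mutants with 1 mutant daw copy, 46.5, 49.3 and 18.9 in foxo and 61.3, 83.8 and 26.0 in WT. Every miR252foxo library thus lay above every other library of the table. Hsp27 had 92.3, 182 and 118 in miR252foxo, against 8.34, 18.4 and 9.71 in miR252 (log2 3.34 ± 0.43, adjusted p = 2.92e-05). Hsp23 stood at 64.6, 110.3 and 89.9 in miR252foxo, against 9.38, 15.7 and 10.7 in miR252 (log2 2.79 ± 0.30, adjusted p = 4.77e-06). Hsp68, an inducible member of the Hsp70 family, had 201, 403 and 258 in miR252foxo, against 26.1, 69.1 and 19.4 in miR252 (log2 3.03 ± 0.41, adjusted p = 4.22e-05). For these 4 genes the groups were apart, and replicate 2 was highest on both sides. DnaJ-1, an Hsp40 cochaperone named after its values were seen, had 745, 993 and 879 in miR252foxo, against 412, 399.7 and 330.0 in miR252 (log2 1.19 ± 0.19, adjusted p = 0.00025). l(2)efl, a small heat shock protein related to alphaB-crystallin and a known FoxO target, went the other way. It had 265, 244 and 228 in miR252foxo, against 556, 539.7 and 495 in miR252 (log2 -1.11 ± 0.14, adjusted p = 1.6e-05).

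Proteasome subunit genes rose together by small amounts. Of 32 tested members 19 rose and 0 fell (0 also at an unadjusted p under 0.05 and with edgeR or DESeq2), the median was 0.43, and all 32 changes were positive. Prosbeta3, a subunit of the proteolytic core, had 227, 255 and 246 normalised reads in miR252foxo, against 139.7, 144 and 121 in miR252 (log2 0.84 ± 0.15, adjusted p = 0.000636). The core subunit Prosalpha5 stood at 242, 253 and 278 in miR252foxo and 158, 169.5 and 155 in miR252 (log2 0.67 ± 0.12, adjusted p = 0.000685). The regulatory subunits Rpn5 (log2 0.62) and Rpn9 (log2 0.58) changed by similar amounts, with adjusted p = 0.000801 and 0.00118. All double-mutant libraries exceeded all miR-252 libraries for these 4 genes. The summed level of the 32 genes was 8988 to 10460 in miR252foxo and 6729 to 7973 in miR252. In the double mutants with 1 mutant daw copy the sum was 7703 to 10030, in foxo 7786 to 8405 and in WT 7524 to 9464. The number called was 8 without miR252 replicate 3, 8 without miR252foxo replicate 3, and 11 without miR252 replicate 1 or miR252foxo replicate 2.

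**Figure D2:**
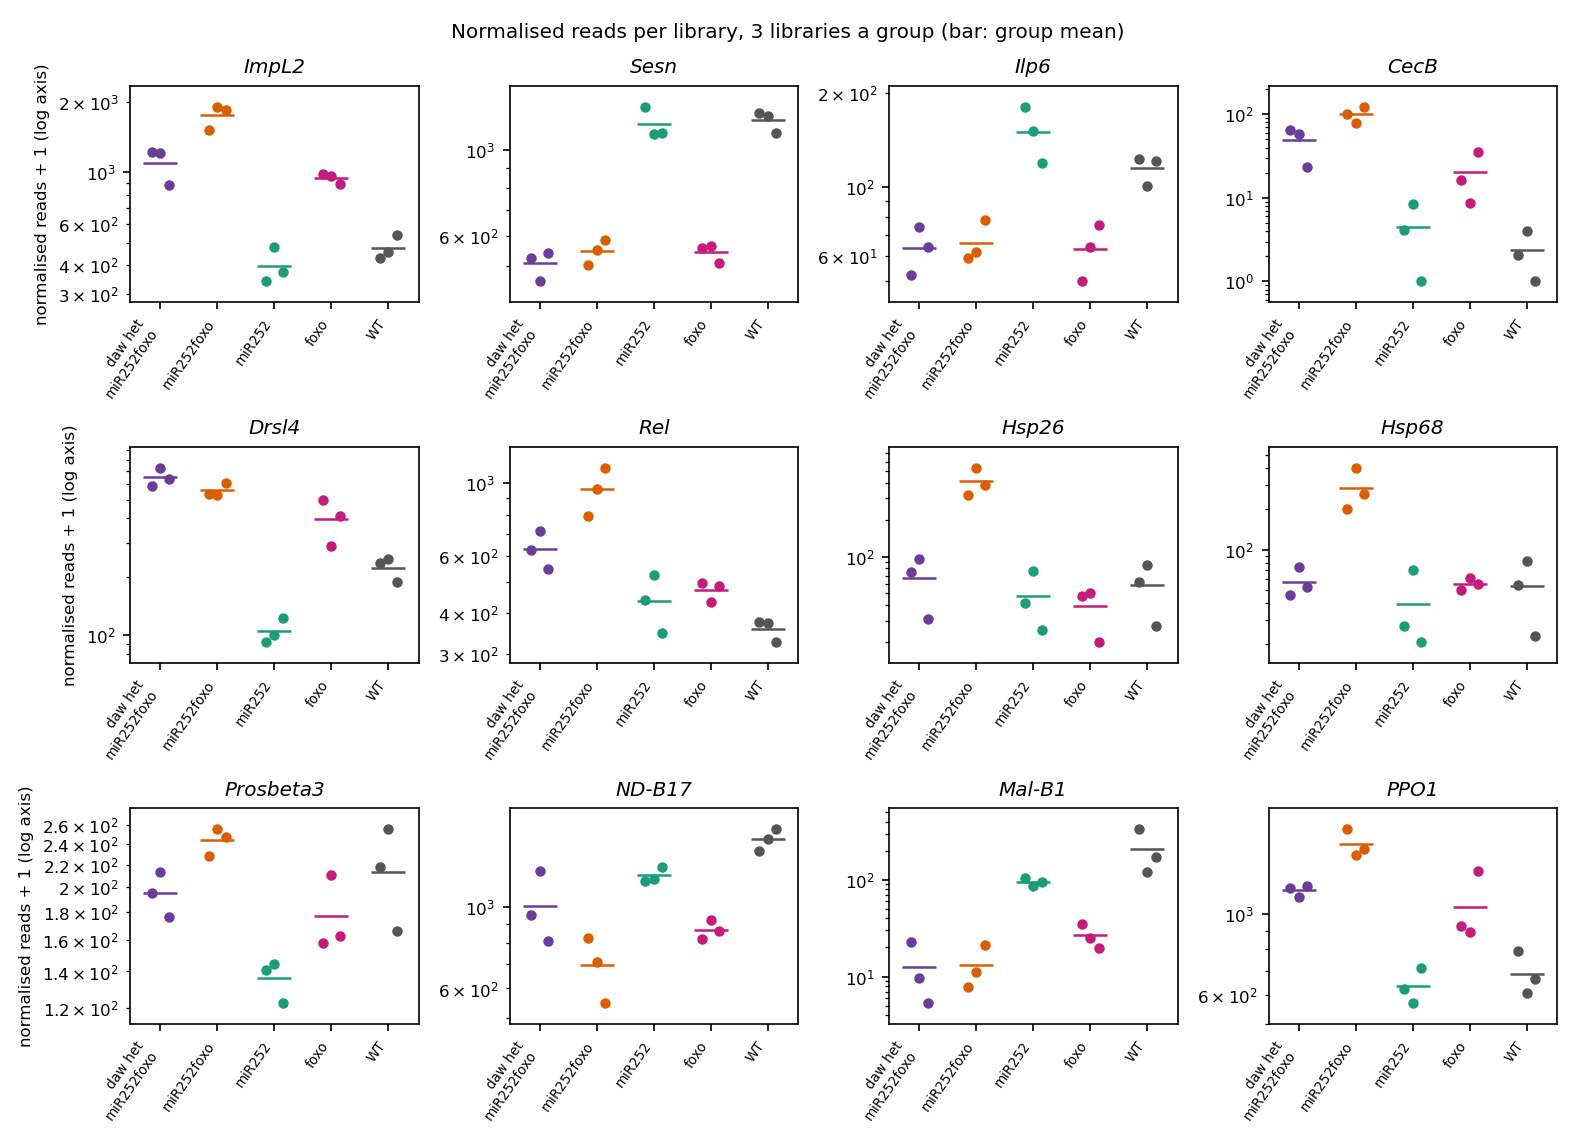
Normalised reads plus 1 in each library (points, log axis) and the group mean (bar) for 12 genes, in the double mutants with 1 mutant daw copy, miR252foxo, miR252, foxo and WT, 3 libraries a group. Hsp26 and Hsp68 are high in miR252foxo alone among the 5 groups, with all 3 libraries above the other 12, and Sesn is low in each group that carries the foxo mutation, with Sesn at 504 to 584 in miR252foxo and 1100.0 to 1293 in miR252.

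Nuclear genes of oxidative phosphorylation, which encode the respiratory chain and ATP synthase, fell as a group. Of 68 tested members 47 fell and 0 rose (0 also at an unadjusted p under 0.05 and with edgeR or DESeq2), and the median was -0.45. The falls were spread over the complexes: 23 of 32 genes of complex I, 3 of 4 of complex II, 3 of 7 of complex III, 9 of 11 of complex IV and 8 of 13 of ATP synthase. The complex I subunit ND-B17 had 823, 709 and 545 normalised reads in miR252foxo, against 1180, 1194 and 1282 in miR252 (log2 -0.83 ± 0.15, adjusted p = 0.000506). ND-13A stood at 412, 336 and 276 in miR252foxo, against 624, 523 and 652 in miR252 (log2 -0.82 ± 0.14, adjusted p = 0.00037). Replicate 3 was the lowest double mutant for both, and no library overlapped. The list's summed level was 175400 to 254200 in miR252foxo and 255400 to 309100 in miR252. The same sum was 292800 to 327700 in the double mutants with 1 mutant daw copy, 315300 to 331200 in foxo and 385400 to 435600 in WT. The number of falls was 25 without miR252 replicate 3 and 22 without miR252foxo replicate 3. ND-B8, another complex I gene, fell furthest, with 2.52, 3.68 and 2.41 in miR252foxo and 11.5, 44.2 and 12.6 in miR252 (log2 -2.37 ± 0.40, adjusted p = 0.000378). It stood at 62.2, 92.8 and 71.6 in the double mutants with 1 mutant daw copy, 3.32, 6.77 and 2.10 in foxo and 300.2, 456 and 318 in WT, so every mutant library lay below every WT library.

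Genes of the glycolysis list fell too, 10 of 20 with 2 rises and a median of -0.34. The list also holds genes of trehalose, glycogen and gluconeogenesis. Its 10 falls include Tps1 (trehalose) and Glys (glycogen), both named after their values were seen, and Pepck2. Pgi, the isomerase of glucose 6-phosphate, had 4152, 3745 and 2951 normalised reads in miR252foxo, against 5823, 5193 and 5945 in miR252 (log2 -0.66 ± 0.12, adjusted p = 0.000618). Enolase (Eno) stood at 13770, 12130 and 8756 in miR252foxo, against 17480, 15590 and 18150 in miR252 (log2 -0.59 ± 0.13, adjusted p = 0.00412). Ldh, which makes lactate from pyruvate, was among the 2 that rose, with 196, 216 and 242 in miR252foxo and 107, 113 and 98.0 in miR252 (log2 1.03 ± 0.24, adjusted p = 0.00582). Pepck2, an enzyme of gluconeogenesis, had 159, 141 and 79.5 in miR252foxo and 439, 268 and 395 in miR252 (log2 -1.56 ± 0.21, adjusted p = 5.35e-05). The summed level of the list was 103800 to 147400 in miR252foxo and 150700 to 179200 in miR252. It was 170500 to 182300 in the double mutants with 1 mutant daw copy. The number of falls was 6 without miR252 replicate 3 and 6 without miR252foxo replicate 3.

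Sarcomere genes split, with 4 of 38 higher and 8 lower and a median of -0.14, against 9.45% higher and 9.49% lower over all genes. Act88F, the actin of indirect flight muscle, had 7644, 7017 and 5727 normalised reads in miR252foxo, against 2798, 3470 and 2972 in miR252 (log2 1.14 ± 0.17, adjusted p = 9.41e-05). Act57B, another muscle actin, stood at 4100, 3855 and 4199 in miR252foxo, against 2354, 2476 and 2440 in miR252 (log2 0.74 ± 0.09, adjusted p = 1.13e-05). The Z-disc protein Zasp66 had 5748, 5213 and 4780 in miR252foxo, against 9796, 8244 and 9350 in miR252 (log2 -0.80 ± 0.10, adjusted p = 1.9e-05). For all 3 the groups were apart. The thick filament gene Mf was lower (log2 -0.81 ± 0.13, adjusted p = 0.000277). The number of sarcomere falls was 3 without miR252 replicate 3, 4 without miR252 replicate 1 and 5 without miR252foxo replicate 2 or 3. Of the 10 muscle markers 2 rose, Act57B and Act88F, and 0 fell with limma, edgeR or DESeq2 (1 at an unadjusted p under 0.05).

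Enzymes of sugar and amino acid use were lower, 12 of 27 with 1 rise and a median of -0.42. Several were maltases, which split disaccharides into glucose. Mal-B1 had 6.71, 10.1 and 20.1 normalised reads in miR252foxo, against 104, 84.7 and 94.1 in miR252 (log2 -2.96 ± 0.44, adjusted p = 0.000111). Mal-A8 stood at 5.04, 9.19 and 3.21 in miR252foxo, against 52.1, 71.8 and 65.0 in miR252 (log2 -3.31 ± 0.65, adjusted p = 0.0013). Mal-A6 had 187, 201 and 161 in miR252foxo, against 741, 935 and 805 in miR252 (log2 -2.17 ± 0.27, adjusted p = 1.83e-05). No maltase named here overlapped between groups, including Mal-B2 (log2 -1.27 ± 0.14, adjusted p = 4.17e-06). hgo, the dioxygenase of tyrosine breakdown, had 46.2, 40.5 and 62.6 in miR252foxo, against 141, 184 and 102 in miR252 (log2 -1.48 ± 0.20, adjusted p = 4.22e-05). Of 25 lipid genes 3 were higher and 3 lower with a median of -0.11, shares near those over all genes (9.45% and 9.49%). The triglyceride lipase bmm was lower, with 236, 237 and 222 in miR252foxo and 386, 375 and 347 in miR252 (log2 -0.67 ± 0.12, adjusted p = 0.00074). Lsd-1, a perilipin that coats lipid droplets, was higher (log2 0.98 ± 0.21, adjusted p = 0.00313), and the phosphatidate phosphatase Lpin lower (log2 -0.60 ± 0.14, adjusted p = 0.00616).

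Of 35 genes of oxidative stress and detoxification 9 rose and 1 fell, with a median of 0.26. MtnD and MtnE, metallothioneins that bind metal ions, rose furthest on the list. MtnD had 38.6, 46.9 and 46.6 normalised reads in miR252foxo, against 0, 2.76 and 0 in miR252 (log2 4.85 ± 0.60, adjusted p = 1.93e-05). MtnE stood at 31.9, 46.0 and 68.3 in miR252foxo, against 2.08, 4.61 and 1.94 in miR252 (log2 3.68 ± 0.48, adjusted p = 2.8e-05). Both were low in every miR252 library. MtnA, at a higher level, had 2367, 2690 and 2149 in miR252foxo, against 1130, 1190 and 1016 in miR252 (log2 1.11 ± 0.21, adjusted p = 0.00114). The thioredoxin Trx2 also rose (log2 0.69 ± 0.14, adjusted p = 0.00137). Of 54 cytochrome P450 genes 6 were higher and 8 lower with a median of 0.12, against 9.45% and 9.49% of all genes. Cyp9b1 had 105, 106 and 130.1 in miR252foxo, against 24.0, 29.5 and 21.4 in miR252 (log2 2.15 ± 0.17, adjusted p = 1.55e-07). Cyp6g1, known for insecticide resistance, had 154, 136 and 117 in miR252foxo, against 587, 389.6 and 460.0 in miR252 (log2 -1.80 ± 0.21, adjusted p = 1.22e-05). The number of P450 falls was 3 without miR252 replicate 1, 3 without miR252 replicate 3 and 5 without miR252foxo replicate 2.

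Lysosome and vacuolar ATPase genes had 2 rises and 9 falls among 32, with a median of -0.14. Over all genes 9.45% were higher, a larger share than in this list, and 9.49% lower. The lysosomal hexosaminidase Hexo1 (log2 -0.62 ± 0.11, adjusted p = 0.000553) and the glucocerebrosidase Gba1b (log2 -0.82 ± 0.21, adjusted p = 0.00811) were lower. Npc2a, a sterol carrier, was higher (log2 0.85 ± 0.21, adjusted p = 0.00746), a call lost without miR252foxo replicate 3 (adjusted p = 0.0598). The number of lysosome falls was 3 without miR252 replicate 1, without miR252 replicate 3 or without miR252foxo replicate 3. In the autophagy list 1 of 23 rose and 2 fell, against 9.45% higher and 9.49% lower over all genes, and the median was -0.04. For Atg8a, the ubiquitin-like protein of the autophagosome membrane, the change was -0.32 on the log2 scale with an adjusted p of 0.0543, and it passed with edgeR (0.0474), DESeq2 (0.0339), a common upper quartile (0.035) and without miR252 replicate 2 (0.0109). The called autophagy genes were the p62 adaptor ref(2)P (log2 0.36, adjusted p = 0.0175), the kinase Atg1 (log2 -0.41, adjusted p = 0.0221) and its partner Atg17 (log2 -0.45, adjusted p = 0.0492). Each of these calls was lost when single libraries were left out. Cytosolic ribosomal protein genes moved little: 2 of 84 fell, 0 rose (0 also at an unadjusted p under 0.05 and with edgeR or DESeq2), and the median was -0.12. The small changes were mostly negative, in 77 of 84 genes, and 9 fell at an unadjusted p under 0.05. Of 12 microRNA pathway genes 2 rose and 1 fell, against the same shares over all genes, with a median of -0.09. The fall was loqs, the partner of Dicer-1, with 44.5, 43.2 and 55.4 in miR252foxo and 82.3, 82.0 and 85.4 in miR252 (log2 -0.80 ± 0.16, adjusted p = 0.00164). The rises, in Ranbp21, the exportin of microRNA precursors (log2 0.62 ± 0.18, adjusted p = 0.0202), and Dcr-2, the Dicer of small interfering RNA (log2 0.48 ± 0.16, adjusted p = 0.0445), were lost in 3 and 7 of 13 other settings. Of 12 clock genes 1 fell and 0 rose (0 also at an unadjusted p under 0.05 and with edgeR or DESeq2), with a median of -0.07. The share of falls over all genes was 9.49%. The fall was the light-sensing cryptochrome cry (log2 -0.36 ± 0.11, adjusted p = 0.0298), named after its values were seen.

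Markers of other tissues that dissected muscle can carry were measured alongside. Neuron and eye markers were lower: 5 of 17 fell and 0 rose (0 also at an unadjusted p under 0.05 and with edgeR or DESeq2), with a median of -0.51. Their summed level was 2156 to 2290 normalised reads in miR252foxo and 2918 to 3515 in miR252, with no member at 0 throughout a group. nSyb, a synaptic vesicle protein, had 282, 276 and 292 in miR252foxo and 428, 460.5 and 493 in miR252 (log2 -0.70 ± 0.11, adjusted p = 0.000128). The acetylcholine-cleaving enzyme Ace (log2 -0.82 ± 0.15, adjusted p = 0.000627) and the glutamate transporter VGlut (log2 -0.65 ± 0.15, adjusted p = 0.00574) fell as well. Without miR252 replicate 3 the neuron list had 3 falls. Fat body markers had 4 rises and 2 falls among 13 and a median of 0.10, and their sums overlapped, at 41250 to 49690 in miR252foxo and 38850 to 44970 in miR252. The larval serum protein Lsp1beta rose most, with 2033, 2821 and 4969 in miR252foxo and 60.5, 138 and 102 in miR252 (log2 5.0 ± 0.42, adjusted p = 2.6e-07). Lsp2 rose (log2 2.87 ± 0.55, adjusted p = 0.00104) and Lsp1gamma fell (log2 -1.68 ± 0.19, adjusted p = 8.05e-06). The female fat body gene fit was higher too (log2 1.00 ± 0.17, adjusted p = 0.000277).

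Gut markers went both ways, 6 of 19 higher and 5 lower with a median of -0.05, against 9.45% and 9.49% of all genes. The sums of gut markers overlapped, at 39390 to 50680 in miR252foxo and 38010 to 44110 in miR252. The digestive protease Jon65Aiii had 6171, 6579 and 5669 in miR252foxo and 2628, 3290 and 2417 in miR252 (log2 1.15 ± 0.15, adjusted p = 4.08e-05), while Jon25Bi had 209.8, 235 and 224 in miR252foxo and 685, 1495 and 809 in miR252 (log2 -2.07 ± 0.49, adjusted p = 0.0061). The count of gut falls was 3 without miR252foxo replicate 3. Cuticle and tracheal markers had 6 rises and 1 fall among 23, a median of 0.03 and sums of 10670 to 11770 in miR252foxo and 14120 to 15150 in miR252. The fall was the mucin gene Muc68D (log2 -0.49 ± 0.11, adjusted p = 0.00327), which made up most of these sums, at 8709, 7952 and 8941 in miR252foxo and 12750, 11580 and 11720 in miR252, and the count of rises was 3 without miR252 replicate 1. Cpr49Ac, a cuticle protein gene, had 27.7, 36.8 and 26.5 in miR252foxo and 2.08, 2.76 and 0 in miR252 (log2 3.78 ± 0.70, adjusted p = 0.000831). Ovary and sex markers summed to 209900 to 234100 in miR252foxo and 146300 to 164700 in miR252, with a median of 0.12. Against 9.45% and 9.49% of all genes, 2 of 10 were higher and 0 lower (0 also at an unadjusted p under 0.05 and with edgeR or DESeq2). Those 2 were the yolk protein genes Yp2 (log2 0.60 ± 0.11, adjusted p = 0.00079) and Yp3 (log2 0.51 ± 0.12, adjusted p = 0.00618), named after their values were seen. The part of these tissues in the other results was not tested.

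Several of the largest changes lay outside these lists. mthl8, a receptor of the methuselah-like family, had no read in any miR252 library. It stood at 55.4, 91.0 and 57.8 normalised reads in miR252foxo, at least 69.6-fold above the floor of 3 reads over the miR252 group, which covers counting error only. In the other groups mthl8 had 68.8, 72.3 and 70.5 in the double mutants with 1 mutant daw copy, 71.9, 70.6 and 94.3 in foxo and 29.6, 16 and 21.8 in WT. mthl2, of the same family, had 302, 412 and 952 in miR252foxo, against 75, 121 and 56.3 in miR252 (log2 2.60 ± 0.30, adjusted p = 1.13e-05). All double-mutant libraries lay above the miR-252 libraries for mthl8 and mthl2. The neuropeptide gene CNMa had 37.8, 53.3 and 61.8 in miR252foxo, against 2.08, 8.29 and 2.91 in miR252 (log2 3.40 ± 0.42, adjusted p = 1.93e-05). Its receptor gene CNMaR had 84.8, 103 and 159.8 in miR252foxo, against 8.34, 13.8 and 11.7 in miR252 (log2 3.23 ± 0.90, adjusted p = 0.0166), a call lost without miR252 replicate 1 (adjusted p = 0.0608) or miR252foxo replicate 3 (0.0739). Ligand and receptor genes were thus both higher in every double-mutant library, as the rule for naming them required. Among the falls, Cyt-b5-r, a cytochrome b5-related protein, had 887, 634 and 502 in miR252foxo, against 2322, 2229 and 2231 in miR252 (log2 -1.78 ± 0.14, adjusted p = 1.55e-07). The voltage-dependent channel gene Porin2 had 32.7, 15.6 and 8.83 in miR252foxo, against 86.5, 73.7 and 48.5 in miR252 (log2 -1.96 ± 0.32, adjusted p = 0.000259). Idgf5, a chitinase-like growth factor, had 52.0, 37.7 and 32.1 in miR252foxo, against 145, 135 and 130.0 in miR252 (log2 -1.75 ± 0.23, adjusted p = 2.68e-05). Each of these 3 falls set the groups apart, which the rule for naming them required. CG12057 (3.36, 267 and 1.61) and LManVI (0, 359.5 and 0) were also at 0 in all miR252 libraries, but in miR252foxo only replicate 2 was high. They did not pass, with adjusted p = 0.189 and 0.411, and were high in the second library of foxo and of WT as well.

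The same foxo allele was next set against WT, in 6 libraries that do not enter the fold changes above. Both comparisons come from 1 fit with a shared spread, so their calls are not fully independent. There 988 of 8357 genes were called (11.8%), 463 higher (5.54%) and 525 lower (6.28%). Without WT library 3 the number was 608. With only the compared groups in each fit it was 1308, against 1481 for miR252foxo over miR252. The gap between 988 and 1583 thus depends in part on the shared spread. Of the 790 genes higher in miR252foxo, 218 were also higher in foxo than in WT (27.6%, and 47.1% of the 463). For the 793 lower genes the shared number was 288 (36.3%, and 54.9% of the 525). Calls in opposite directions were 8 and 7. In foxo against WT 4 antimicrobial peptide genes rose and 1 fell (median 1.16). The 1 proteasome gene called there fell (median -0.05), as did both heat shock genes called there (median -0.10). Of the 68 oxidative phosphorylation genes 38 were lower in foxo against WT (median -0.42). Gut markers had 8 rises and 1 fall (median 0.64). Hemocyte markers had 6 rises and 1 fall there (median 0.41).

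The difference between both foxo effects was tested itself, as the foxo effect in the miR-252 mutant minus that in WT. It passed for 175 of 8357 genes (2.09%), 99 with a positive difference (1.18%) and 76 with a negative one (0.909%). Among the positive ones, 47 rose in the miR-252 mutant and were not called in foxo over WT, 39 fell in foxo over WT and were not called in the miR-252 mutant, and 8 rose in the miR-252 mutant and fell in foxo over WT. Among the negative ones, 31 fell in the miR-252 mutant and were not called in foxo over WT, 34 rose in foxo over WT and were not called in the miR-252 mutant, and 7 fell in the miR-252 mutant and rose in foxo over WT. Without miR252 replicate 1 the total was 113.

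The test of the difference called 5 of 15 heat shock genes in the positive direction (Hsp23, Hsp26, Hsp27, Hsp68 and DnaJ-1), against 1.18% of all genes. The Hsp26 difference was positive (log2 3.75 ± 0.65, adjusted p = 0.00246), with 46.5, 49.3 and 18.9 normalised reads in foxo and 61.3, 83.8 and 26.0 in WT. Of 32 proteasome genes 5 had a positive difference (Prosalpha5 and Prosbeta3, and Rpt4, Prosbeta7 and Pomp, named after their values were seen). For Prosbeta3 the difference passed (log2 1.10 ± 0.21, adjusted p = 0.00764), and it had 157, 209.9 and 161 in foxo and 217, 254 and 165 in WT. ImpL2 rose in both backgrounds, by 1.00 in foxo over WT, and more in the miR-252 mutant (log2 1.15 ± 0.20, adjusted p = 0.00295). Drsl4 likewise rose in both and more in the miR-252 mutant (log2 1.61 ± 0.24, adjusted p = 0.000404). The P450 gene Cyp4p2 had 128, 129.6 and 167 in miR252foxo and 73.0, 56.2 and 47.5 in miR252 (log2 1.26 ± 0.32, adjusted p = 0.00887), a call lost without miR252foxo replicate 3 (adjusted p = 0.0508). In the other background it had 1.11, 1.94 and 6.28 in foxo and 49.7, 42.9 and 57.1 in WT, a fall (log2 -3.83 ± 0.32, adjusted p = 2.08e-07), and the difference passed (log2 5.09 ± 0.45, adjusted p = 1.31e-06). Jon25Bi, which fell in miR252foxo, was higher in foxo, at 1087, 1662 and 1535, against 95.1, 169.6 and 21.8 in WT, and its difference was negative (log2 -6.36 ± 0.70, adjusted p = 1.65e-05). Its near copy Jon25Bii had a like difference of -6.43, and reads may have been split between them. mthl8 rose in both backgrounds. smp-30, a regucalcin-like gene, had 364, 266 and 288 in foxo and 77.2, 54.9 and 76.9 in WT, and no call in the miR-252 mutant (log2 -0.14, adjusted p = 0.662). Its difference was negative (log2 -2.27 ± 0.27, adjusted p = 4.54e-05). The gene sordd2 was at 0 in all libraries of miR252foxo, miR252 and foxo and stood at 89.8, 86.8 and 84.2 in WT. It was present in the double mutants with 1 mutant daw copy, at 32.7, 20.5 and 38.5. Whether its level follows the named alleles or another difference between the groups was not tested.

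**Figure D3:**
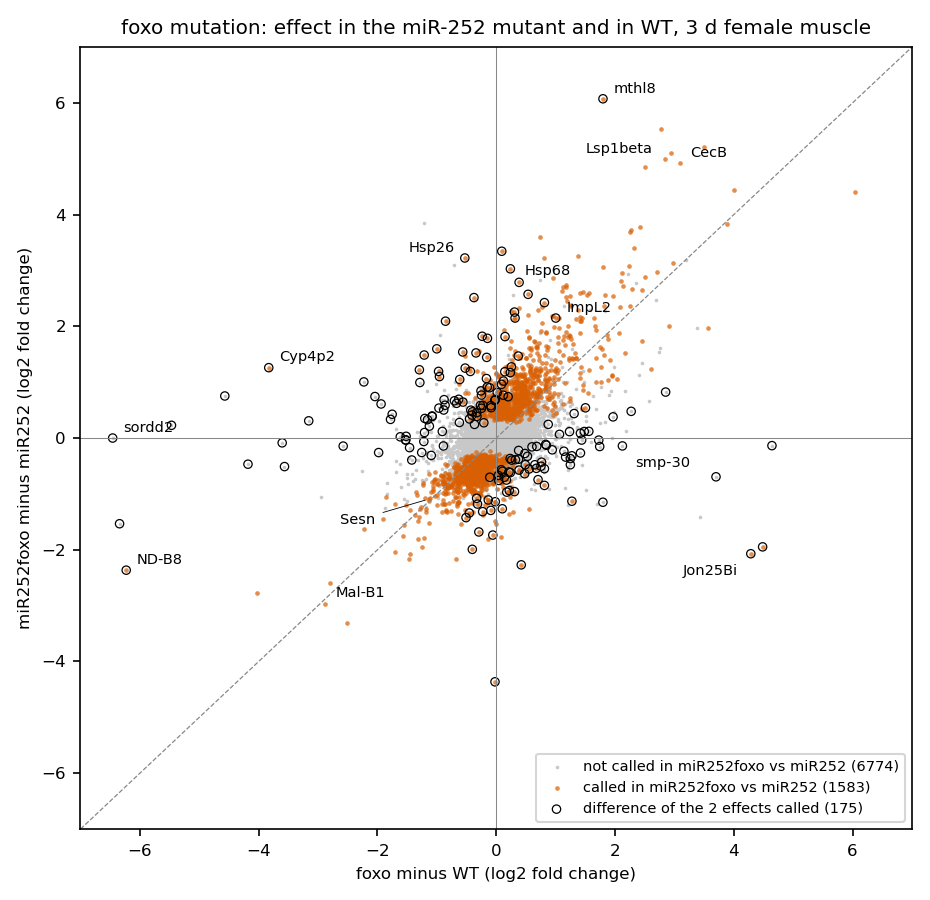
Log2 fold change in miR252foxo over miR252 (vertical) against that in foxo over WT (horizontal) for the 8357 tested genes, each a point. Orange marks the 1583 genes called in miR252foxo over miR252, rings mark the 175 whose difference between both effects was called, and the dashed line marks equal change. Hsp26 and Hsp68 lie high near a horizontal value of 0, and Jon25Bi lies low on the right.

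The same allele was also measured in libraries that share none with the comparisons above. In daw3UTRfoxo over daw3UTR 2532 of 8271 genes were called (30.6%), 14.4% higher and 16.2% lower. Rises outnumbered falls there with edgeR, 1359 to 1199. Of the 742 genes higher in miR252foxo and tested in both, 478 were higher there (64.4%, and 41.0% of the 1167 higher there). For the falls this was 485 of 783 (61.9%, and 37.2% of 1305). In the authors' deposited table for axenic flies, 586 of 9371 genes passed (6.25%), 3.01% higher and 3.24% lower. Of the 775 higher genes tested in both, 140 were higher in that deposited table (18.1%, and 53.8% of 260), and of 784 lower genes 178 were lower in it (22.7%, and 61.6% of 289). Across genes the correlation of log2 fold changes was 0.546 with foxo over WT (8357 genes), 0.634 with daw3UTRfoxo over daw3UTR (8005) and 0.449 with the authors' deposited table (8230). Genes are not independent replicates, and all these comparisons share the foxo allele. In daw3UTRfoxo over daw3UTR 22 of 28 antimicrobial peptide genes rose (median 1.87), as did 14 of 32 proteasome genes (median 0.32) and 13 of 15 hemocyte markers (median 1.07). The authors' deposited table for axenic flies had 2 antimicrobial peptide genes higher and 3 lower of 28 (median 0.07). Of 32 proteasome genes 0 were called in the authors' deposited table (median 0.1). Hemocyte markers had 5 rises and 1 fall among 15 there (median 0.3), and 16 of 67 oxidative phosphorylation genes were lower (median -0.36).

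A set of 66 genes rose and 105 fell in all 4 comparisons, of 741 higher and 781 lower genes tested in all. Among named genes 9 of these rose and 14 fell. ImpL2 rose by 2.15 on the log2 scale in miR252foxo over miR252, 1.00 in foxo over WT, 1.34 in daw3UTRfoxo over daw3UTR and 1.42 in the authors' deposited table for axenic flies. For Drsl5 the same 4 values were 2.53, 1.17, 0.92 and, in the authors' deposited table, 1.68. Sesn had changes of -1.09, -1.13, -1.09 and, in the authors' deposited table, -0.82. Ilp6 had -1.17, -0.88, -2.47 and, in the authors' deposited table, -1.26. The maltase Mal-B1 had -2.96, -2.88, -2.62 and, in the authors' deposited table, -0.88. l(2)efl is also in the set, with -1.11, -0.90, -0.65 and, in the authors' deposited table, -1.24. Other heat shock genes are not in the set. Hsp23 rose in daw3UTRfoxo over daw3UTR (log2 2.72 ± 0.47, adjusted p = 0.000685), as did Hsp68 (log2 0.97 ± 0.25, adjusted p = 0.00792). Hsp26 had 3.22, -0.53, 0.88 (adjusted p = 0.0626) and, in the authors' deposited table, 0.28.

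**Figure D4:**
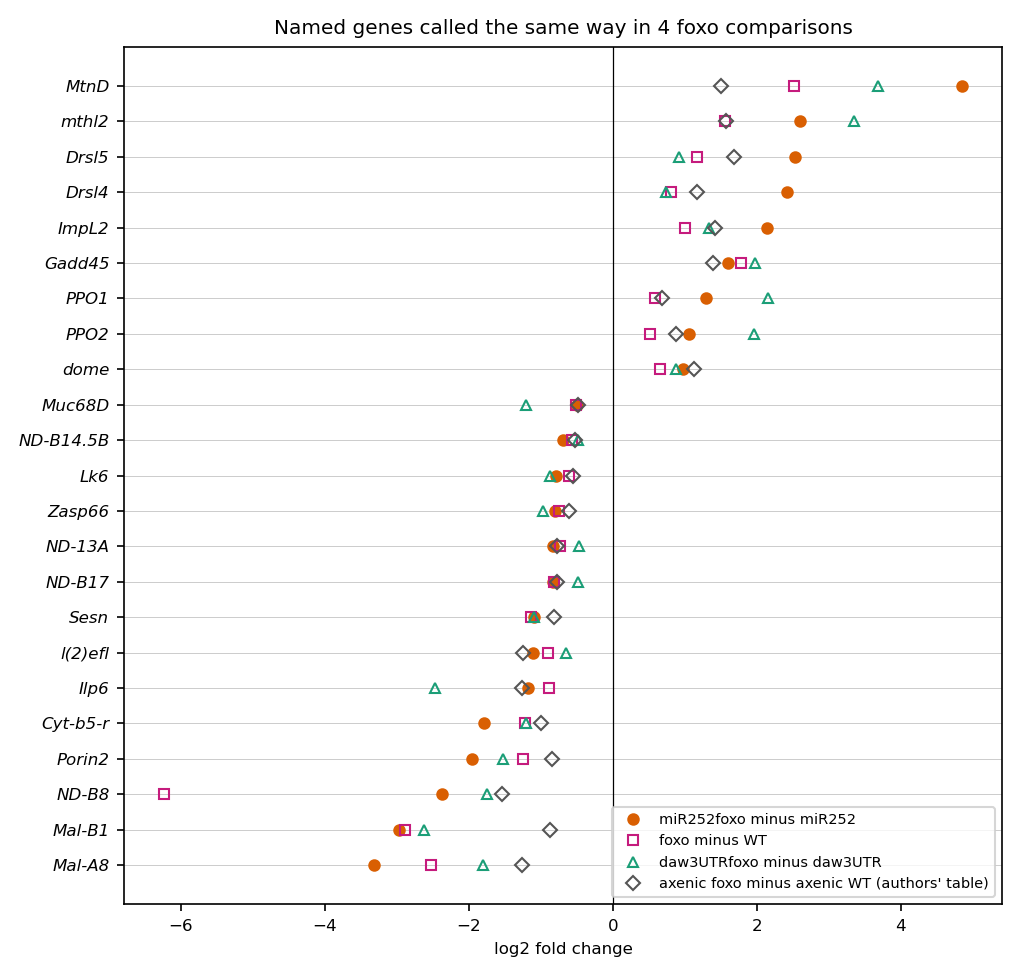
Log2 fold changes of the 23 named genes called in the same direction in 4 comparisons of the foxo mutation, in miR252foxo over miR252 (filled circles), foxo over WT (squares), daw3UTRfoxo over daw3UTR (triangles) and axenic foxo over axenic WT from the authors' deposited table (diamonds). The 9 genes that rose lie right of 0 and the 14 that fell lie left of it, as the choice of these genes required.

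Called genes were spread over the genome. Their share was lowest on X at 17.6% and highest on chromosome 4 at 20.3%, with 18.2% on 3L, 19.2% on 2R and 19.4% on 3R. Within 1 Mb of foxo 31 of 119 genes passed (26.1%), against 19.1% between 1 and 3 Mb and 18.9% beyond 6 Mb on 3R. This window also holds mir-252. The calls on chromosome 4 were 15 falls and 0 rises of 74 tested genes, with a median of -0.26 (0 rises also with edgeR and DESeq2, and 2 at an unadjusted p under 0.05).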

How the data were processed

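Poly(A) RNA of dissected fly muscle was sequenced from Trizol extracts with the NEBNext Ultra kit, per the labels' protocols, and STAR, HTSeq, DESeq and the dm6 build are named without versions or roles in the submitters' processing notes. Strand use in the counting is not stated there, so overlapping or antisense genes and close copies may have shared reads. The deposited tables hold a normalised signal, the authors' gene counts divided by DESeq size factors. From these values whole reads were recovered for every library (100% within 0.01 of a whole number), giving 3294056 to 4078819 reads per library in the main table and 2468381 to 3407228 in the daw3UTR libraries of the other. For axenic flies only the authors' deposited comparison was used, with its log2 fold change, its standard error (a deposited score column), and the authors' p-value and adjusted p-value. Shrinkage of those fold changes is not stated.

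Genes with a table mean of 10 or more were tested with limma trend 3.58.1 (R 4.3.3) on log2(normalised value + 1), with all 15 libraries of 5 groups sharing 1 spread, and p-values were adjusted by the Benjamini-Hochberg method over all genes tested, with calls at an adjusted p under 0.05. Fold changes are therefore on the log2(value + 1) scale, which understates changes of low genes. All adjusted p-values printed come from this limma fit unless edgeR, DESeq2 or the authors' table is named. The daw3UTR table was fitted alike over its 12 libraries and never tested against the first. The fit of miR252foxo over miR252 was tested on simulated data, and the daw3UTR fit was not. The simulated reads had the same spread for all genes and libraries, and only genes at higher levels were changed. They cannot show how the fit finds changes of low genes or treats uneven libraries. Alternatives were a pseudocount of 8, no filter, scaling to 1 upper quartile, the recovered whole reads tested with edgeR 4.0.16 or with DESeq2 1.42.0, only the compared groups, the replicate number as a block, and each library left out. With the whole reads edgeR called 1676 genes and DESeq2 1501.

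Same-numbered libraries of miR252foxo and miR252 had deviations from their group means that correlated at 0.043, -0.02 and -0.076, so the numbers were not taken to pair samples. The WT columns of the table carry no link to a numbered sample. The gene symbols of the table were matched to current names: 8241 were current, 1631 matched through another table, 358 through a RefSeq synonym, and 28 matched none. No column of per-sample values was left unmapped.

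Named genes were foxo, daw, babo, Actbeta and Atg8a; the 12 largest rises and 12 largest falls among called genes whose groups did not overlap, with a mean of 50 or more in the higher group and a symbol that is not a CG or CR number; in each list with 3 or more called members, the 4 or fewer of lowest adjusted p; up to 6 genes each way for the difference between foxo effects; and genes at 0 in all libraries of 1 group with a mean of 50 or more in the other. The 26 gene lists, the comparison and this rule were chosen with earlier results of these data known.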

Additional observations from a re-analysis of the deposited data

Results flagged for a closer look

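The test of the difference between foxo effects (miR252foxo over miR252, minus foxo over WT, limma with adjusted p under 0.05) put 26 of the named genes up for a closer look. Up to 6 genes each way had been named for passing this same test, so their place here was set beforehand. The values below are those differences on the log2 scale. Chaperones had positive differences, with Hsp23 at 2.40, Hsp68 at 2.79, Hsp27 at 3.25 and Hsp26 at 3.75. The proteasome subunits Prosalpha5 (0.70) and Prosbeta3 (1.10) were positive as well. Among immune and signalling genes the difference was 1.10 for spz, 1.15 for ImpL2 and 1.61 for Drsl4. The P450 genes Cyp9b1 (1.83), Cyp6w1 (1.87), Cyp6a17 (2.52) and Cyp4p2 (5.09) had positive differences too. Act57B, a muscle actin, had 0.54 and the complex I gene ND-B8 3.86. ND-B8 fell in both backgrounds (log2 -2.37 in miR252foxo over miR252 and -6.23 in foxo over WT). Its means were low in miR252foxo (2.868) and foxo (4.062), so its difference depends in part on the pseudocount. The values of mthl8 (4.28) and sordd2 (6.46) depend on the pseudocount, since mthl8 is at 0 in all miR252 libraries and sordd2 at 0 in all libraries of miR252foxo, miR252 and foxo.

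Negative differences were largest in the gut proteases Jon25Bii (-6.43) and Jon25Bi (-6.36), which may share reads. smp-30 had -2.27, tun -1.47 and the RNA polymerase I subunit Polr1E -1.44. The storage protein gene Lsp1gamma had -1.39 and the maltase gene Mal-B2 -1.37. The lysosomal Hexo1 (-0.86) and the lipase bmm (-0.70) had smaller ones. tun had 146, 148 and 197 normalised reads in miR252foxo and 177, 172 and 150.4 in miR252, with 200.3, 242 and 202 in foxo and 78.2, 76.8 and 80.0 in WT. Polr1E had 86.4, 94.7 and 73.9 in miR252foxo and 103, 70.0 and 65.0 in miR252, with 107, 73.5 and 108 in foxo and 28.5, 31.9 and 34.3 in WT.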

How the results depend on the processing

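Against 1583 genes called in miR252foxo over miR252, alternatives that kept all 6 libraries gave 1481 (only these groups in the fit) to 1676 (edgeR). Leaving out 1 library gave 959 to 1695, with 959 without miR252 replicate 3 and 961 without miR252foxo replicate 3, where fewer samples were tested. For foxo over WT the range was 608 to 834 against 988, for the difference between effects 113 to 176 against 175, and for daw3UTRfoxo over daw3UTR 1817 to 2607 against 2532. With only the compared groups in the fit, foxo over WT had 1308 calls and the difference between effects 237. A library left out lowered the count to 608 (WT library 3) and 113 (miR252 replicate 1). No named gene that was called changed sign under any of 13 alternatives, and 85 of 98 called named genes passed in all of them. Many of these had been named for a large change or a low adjusted p. Of all 1583 calls, 58.9% were kept without miR252foxo replicate 3, 59.2% without miR252 replicate 3 and 67.0% without miR252 replicate 1. In these 3 fits 0 of the 1583 changed sign. The median of all genes was 0.007 on the log2 scale, and -0.022 with a common upper quartile. That scaling called 722 higher and 917 lower genes in miR252foxo over miR252, against 790 and 793, and 1064 higher and 1517 lower in daw3UTRfoxo over daw3UTR, against 1192 and 1340.

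With the replicate number as a block, in a fit over the 4 mutant groups, 1630 genes were called (826 higher, 804 lower), and 2454 in the fit with daw3UTR. The same numbers there correlated at 0.051, -0.008 and -0.009, so the numbers showed no pairing. Every named gene kept its side of the threshold under the block. Calls of low genes are limited by depth, and counts on the gene lists moved with single libraries, as given beside each list.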

Other observations

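The double mutants with 1 mutant daw copy were not tested against another group. Their summed level of ovary and sex markers, mostly yolk protein genes, was 253000 to 278100 normalised reads, against 209900 to 234100 in miR252foxo, 146300 to 164700 in miR252, 268700 to 304600 in foxo and 134900 to 163300 in WT, so every foxo-mutant library lay above every library with a normal foxo gene. The mucin gene Muc68D had the opposite order. It stood at 7874, 8011 and 10170 in the double mutants with 1 mutant daw copy, 8709, 7952 and 8941 in miR252foxo, 12750, 11580 and 11720 in miR252, 9607, 9039 and 9759 in foxo and 14710, 13180 and 12510 in WT.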
